A study of Mus musculus with 26 samples.

Results

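Oligodendrocyte precursor genes are 8 named genes that mark the dividing glial progenitors from which oligodendrocytes form: Pdgfra, Cspg4, Gpr17, Vcan, Ptprz1, Tnr, Lhfpl3 and Sox6. They were chosen by name and located through the Ensembl identifiers of a counts table of 27501 genes. A total of 7 of the 8 had an entry there, and Lhfpl3 was not analysed here. Their nuclear RNA was followed through 3 mouse lines, before and after nuclei of 1 brain cell type were sorted.

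Oligodendrocyte precursors are spread through grey and white matter of the adult brain. They divide in response to platelet-derived growth factor, carry chondroitin sulphate proteoglycans on their surface, and pass through a short committed stage before they make myelin. Several genes used as their markers are not theirs alone: Pdgfra is also expressed by meningeal and perivascular fibroblasts, Cspg4 by pericytes, Ptprz1 by astrocytes and Tnr by some neurons.

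The groups were sorted oligodendrocyte, astrocyte and neuron nuclei, presort nuclei of the same 3 lines, and whole-brain cytoplasm. The lines were JD368Htz/J (oligodendrocyte; transgene Cnp-EGfp/Rpl10a), JD130Htz/J (astrocyte; transgene Aldh1L1-EGfp/Rpl10a) and JD362Htz/J (neuron; transgene Snap25-EGfp/Rpl10a), all named B6.FVB-Tg. In each the ribosomal protein Rpl10a, tagged with green fluorescent protein (GFP), is driven by regulatory sequence of the gene in the transgene's name, so every group held such a transgene and no mouse without one was included. Cnp is active in the oligodendrocyte lineage, and how far each driver reaches into precursors was not measured. All mice were 6 to 12 weeks old, the tissue was whole brain, and there were 4 libraries in each nuclear group, from 2 females and 2 males. Of the 2 cytoplasmic libraries, replicate 1 came from a male of the astrocyte line and replicate 2 from a female of the oligodendrocyte line. Each library came from 1 mouse according to the design text, which also says that presort nuclei were taken from each mouse, so the sorted and presort libraries of a line are not from separate animals. The labels do not say which of them share a mouse, so they were tested as independent. Levels are given as CPM, a gene's counts per 1000000 counts of the library, and replicates are named by the numbers in their labels.

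Total counts ran from 134357 to 3239445 in sorted libraries and from 147826 to 3274488 in presort libraries, with medians of 2485416.5 and 260451, and the cytoplasmic libraries held 4461568 and 3885312. A floor of 3 counts came to between 0.672 and 22.3 CPM. The sorts matched their labels: summed CPM of 12 mature oligodendrocyte markers was 30804 to 38400 in sorted oligodendrocyte nuclei and at most 6810 in any other nuclear library, 12 astrocyte markers reached 22686 to 27395 in sorted astrocyte nuclei and at most 5007 elsewhere, and 10 neuron markers reached 10408 to 15429 in sorted neuron nuclei and at most 1492 in the other sorted nuclei. A pair of sorted libraries stood apart. Sorted oligodendrocyte replicate 36 had 1602594 counts but 7674 genes detected, against at least 16223 in the other sorted oligodendrocyte libraries, and 0 GFP counts, against 79 to 155. Sorted astrocyte replicate 30 had 134357 counts, so a single count in it is worth more than in any other library. The 79 to 155 GFP counts came from totals of 2097653 to 2932766. Presort libraries of the oligodendrocyte line held 15 to 25 GFP counts in totals of 219714 to 313720. As a share of counts, GFP was thus lower in every sorted than in every presort library of that line. In the astrocyte and neuron lines it was higher in every sorted than in every presort library.

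The promoters of Pdgfra, Cspg4 and Ptprz1 are shown because Pdgfra and Cspg4 are the markers most used for precursors and Ptprz1 was the most strongly increased of the genes in the astrocyte line. Each window is 300 bases of RefSeq sequence on GRCm38.p6, 250 before the annotated start and 50 after it, written 5′ to 3′ along the gene, with CG dinucleotides in capitals. Pdgfra lies at chr5:75152001-75152300 (+), Cspg4 at chr9:56864854-56865153 (+) and Ptprz1 at chr6:22875252-22875551 (+).
Pdgfra promoter: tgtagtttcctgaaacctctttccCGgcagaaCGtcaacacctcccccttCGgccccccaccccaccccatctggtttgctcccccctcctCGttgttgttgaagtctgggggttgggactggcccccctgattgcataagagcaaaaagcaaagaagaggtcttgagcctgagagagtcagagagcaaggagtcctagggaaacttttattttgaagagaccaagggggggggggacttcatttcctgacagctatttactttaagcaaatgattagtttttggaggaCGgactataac
Cspg4 promoter: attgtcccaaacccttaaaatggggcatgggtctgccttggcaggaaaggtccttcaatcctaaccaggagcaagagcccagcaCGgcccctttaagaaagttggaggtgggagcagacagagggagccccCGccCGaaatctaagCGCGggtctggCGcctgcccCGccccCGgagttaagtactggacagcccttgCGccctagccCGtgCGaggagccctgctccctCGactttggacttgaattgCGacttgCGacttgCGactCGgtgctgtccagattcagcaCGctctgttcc
Ptprz1 promoter: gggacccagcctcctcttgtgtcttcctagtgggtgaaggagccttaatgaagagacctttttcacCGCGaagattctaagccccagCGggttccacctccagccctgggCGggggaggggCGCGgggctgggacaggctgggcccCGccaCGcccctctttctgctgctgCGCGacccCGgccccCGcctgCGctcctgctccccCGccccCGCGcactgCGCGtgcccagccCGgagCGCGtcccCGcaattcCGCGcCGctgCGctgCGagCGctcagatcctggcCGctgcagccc
The Ptprz1 window held 29 CG dinucleotides and 71.7% G or C, the Cspg4 window 17 and 60.0%, and the Pdgfra window 5 and 51.0%, beside medians of 7 and 52.7% over 32851 promoter windows of the same length. A search for AACAAT, a Sox-type sequence, and CAGCTG, an E-box, on both strands found neither in the windows of Pdgfra, Cspg4, Ptprz1, Vcan or Tnr, and found CAGCTG at 2 places in the window of Lhfpl3. No window of Gpr17 was used. AACAAT is held by 10.7% of all windows and CAGCTG by 16.3%. Among the 6 windows of Sox6, 1 held AACAAT and 1 held CAGCTG. These motifs do not overlap each other, and no match says only that the letters are not in the window.

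In unsorted nuclei Pdgfra and Tnr varied least relative to counting error. Pdgfra ranged from 81.2 to 141 CPM over the 12 presort libraries (median 109) and Tnr from 50.3 to 96.2 CPM (median 72.8), with coefficients of variation of 14.5% and 19.4%. Their variance was no more than counting error gives (chi-square per degree of freedom 0.512 for Pdgfra and 0.766 for Tnr, beside a median of 2.30 over 8594 genes of 100 to 5000 summed counts). Ptprz1, from 212 to 560 CPM, exceeded counting error most (chi-square per degree of freedom 14.3). Cspg4 had the highest coefficient of variation, from 6.38 to 63.7 CPM (45.4%), but its counts were as low as 2 in a library and its chi-square per degree of freedom was 2.27. Vcan ranged from 215 to 373 CPM, Gpr17 from 67.6 to 173 CPM and Sox6 from 30.3 to 111 CPM. A joint test of differences among the 3 lines called 0 of the 7 genes (unadjusted p = 0.108 for Sox6, the lowest, and 0.874 for Vcan, the highest; adjusted p = 0.999 for each, edgeR quasi-likelihood F test, Benjamini-Hochberg over 6048 genes), where 0% of all genes were called. At an unadjusted p under 0.05 the same test had 204 genes, DESeq2 called 3 and edgeR without a filter on low counts called 1.

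**Figure D1:**
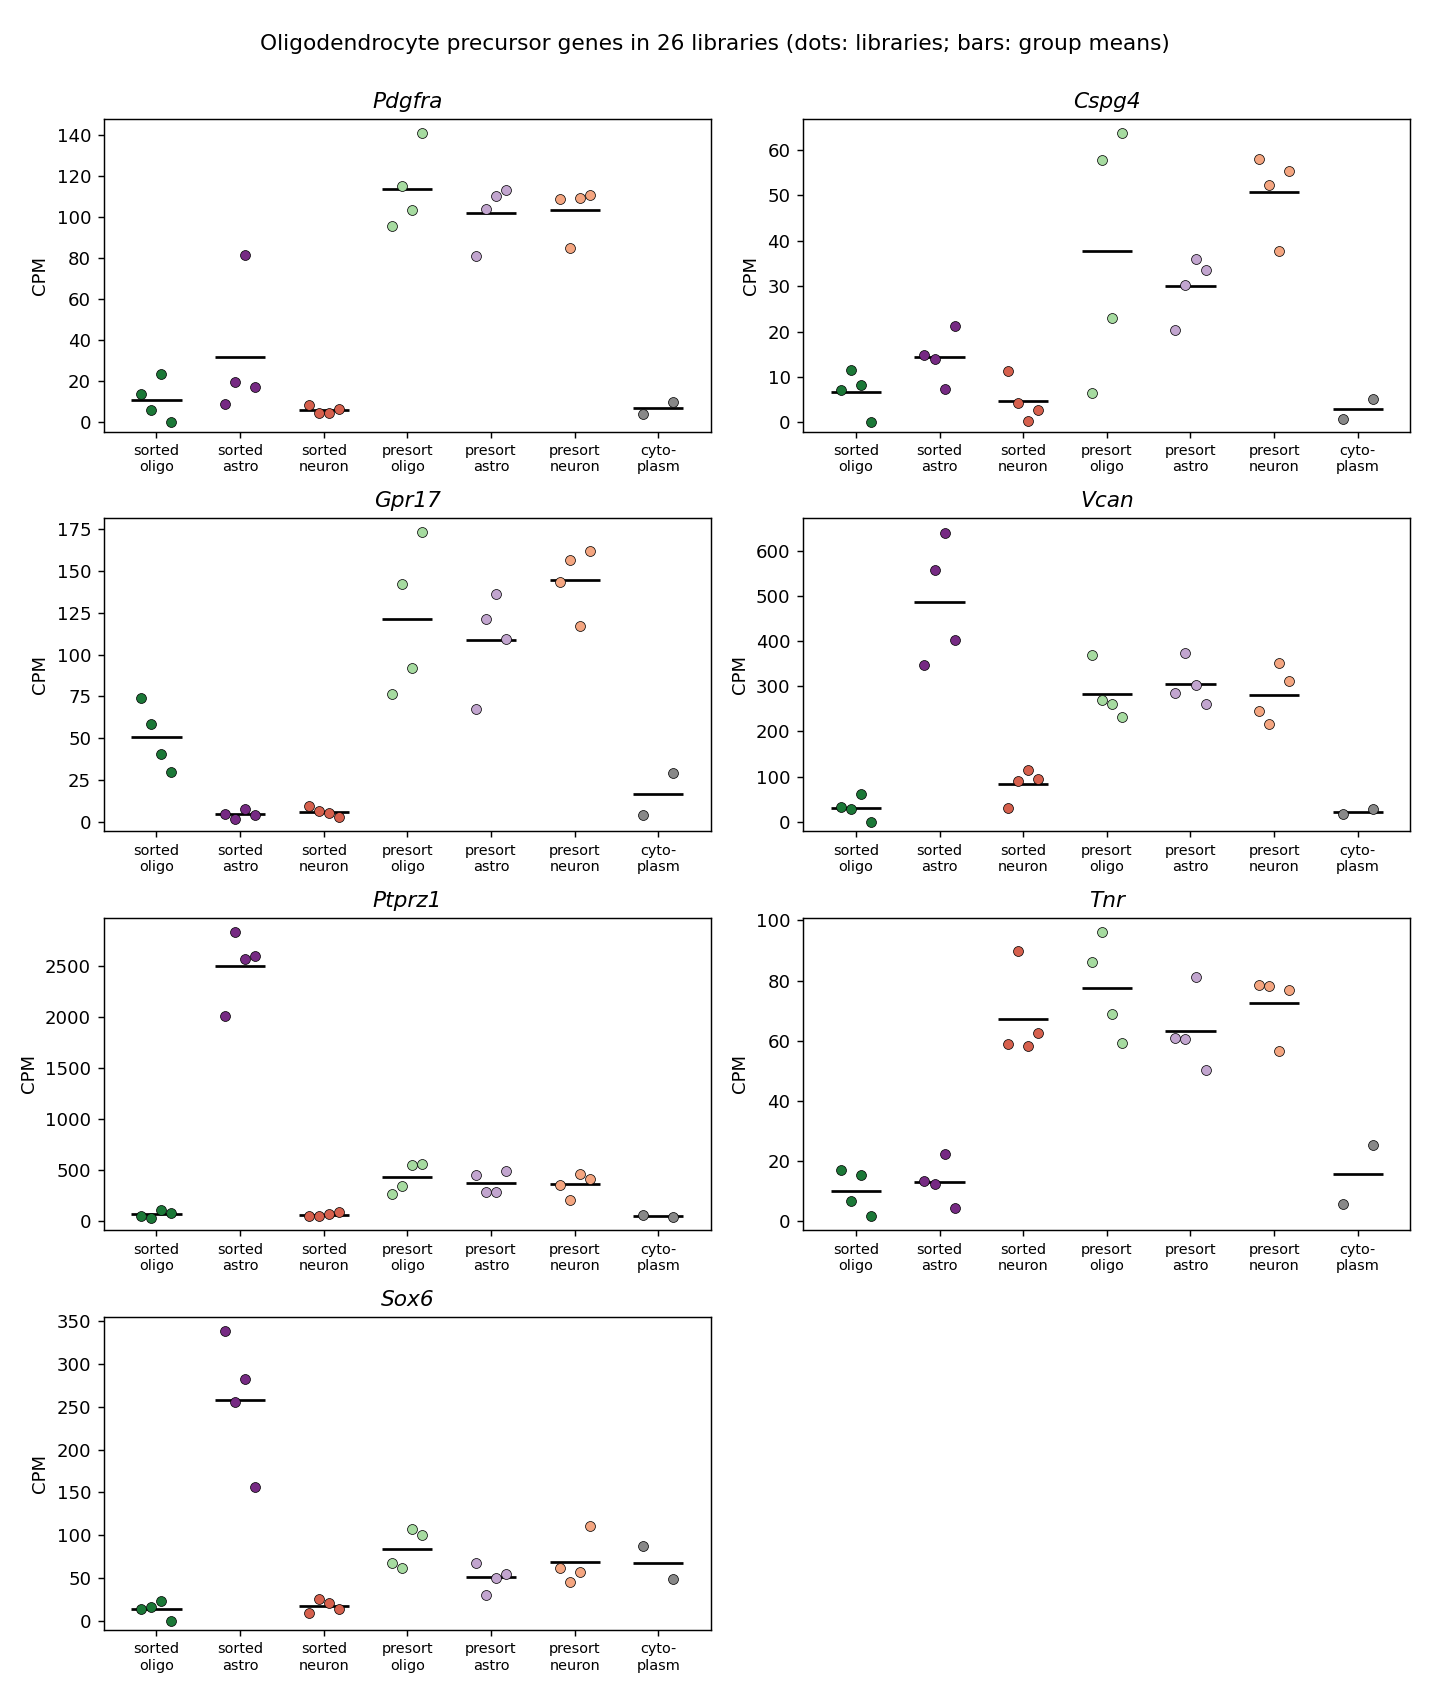
Level of each of the 7 genes in CPM (vertical axes, linear, from 0) in the 7 groups (horizontal axes), with 1 dot for each of 26 libraries and a bar at the group mean. Presort nuclei of the 3 lines overlap for every gene except Cspg4, whose astrocyte-line libraries (20.3 to 36.04 CPM) lie under those of the neuron line (37.8 to 57.9 CPM); sorted astrocyte nuclei stand above all other groups for Ptprz1 and Sox6, sorted oligodendrocyte nuclei above the other sorted nuclei for Gpr17, and sorted neuron nuclei above the other sorted nuclei for Tnr.

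Sorting against the presort mixture shows which line kept each gene. The neuron line lost 6 of 7: Pdgfra, Cspg4, Gpr17, Vcan, Ptprz1 and Sox6 fell, and Tnr, at 0.00 on the log2 scale, did not pass. The astrocyte line gained Vcan, Ptprz1 and Sox6 and lost Pdgfra, Gpr17 and Tnr. The oligodendrocyte line lost Vcan, Ptprz1 and Tnr. The other 4 did not pass there, with log2 fold changes of -3.01 for Pdgfra, -2.31 for Sox6, -2.07 for Cspg4 and -0.75 for Gpr17. All 7 genes passed the filter on low counts in every comparison, and each is a share of its library, so that fewer cells of a type and less RNA per cell cannot be told apart.

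In the neuron line 0 members were higher and 6 lower in sorted than in presort nuclei, where 1.26% of the 11023 genes tested were higher and 5.08% lower at an adjusted p under 0.05 (edgeR quasi-likelihood F test, Benjamini-Hochberg, here and below). The median log2 fold change of the 7 members was -2.33, beside 0.07 over all genes tested. In the astrocyte line 3 were higher and 3 lower, where 13.7% and 15.4% of 11025 genes were, with medians of -0.73 and -0.03. In the oligodendrocyte line 0 were higher and 3 lower, where 5.12% and 3.24% of 9519 genes were, with medians of -2.31 and -0.07. The last count rests on single libraries: without sorted oligodendrocyte replicate 36 it was 5, Pdgfra and Sox6 being added; without sorted replicate 10 it was 1; and without sorted replicate 12 or any of the presort oligodendrocyte replicates 9, 11, 33 and 35 it was 0. The direction was the same for all 7 genes in each of these fits. DESeq2 called 5, a fit over all 24 nuclear libraries 6, and fits within a sex 5 in males and 0 in females, the sex of replicate 36. The genes called lower overall moved in the same way: 1026 of 6116 tested without replicate 36, 53 to 140 without any of the other 6 libraries just named, 938 of 9519 by DESeq2, 1543 of 12170 over 24 libraries, 1070 of 10678 in males and 0 of 9654 in females, against 308 of 9519.

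**Figure D2:**
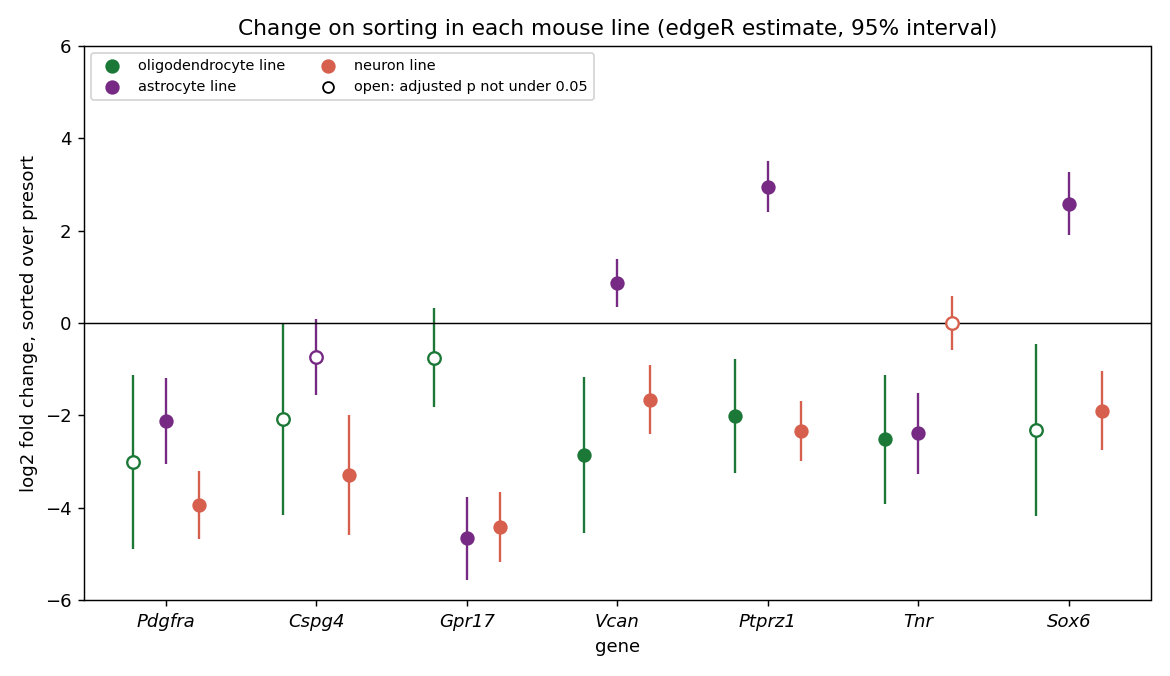
Change of each gene (horizontal axis) in sorted over presort nuclei of the oligodendrocyte, astrocyte and neuron lines, as the edgeR log2 fold change (vertical axis) with its 95% interval over 4 against 4 libraries; filled points passed an adjusted p of 0.05 and open points did not. The astrocyte line stands above 0 for Vcan (0.87), Ptprz1 (2.96) and Sox6 (2.59), the neuron line at 0.00 for Tnr, and the oligodendrocyte line nearest 0 for Gpr17 (-0.75).

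The lines were then compared directly, as the difference between their sorted-over-presort changes in 1 fit of 24 nuclear libraries and 12170 genes. Comparisons that share a line share its libraries. Oligodendrocyte line minus neuron line, 1 member was higher and 1 lower, where 8.86% and 7.16% of all genes were. Oligodendrocyte line minus astrocyte line, 1 was higher and 3 were lower, where 7.03% and 6.38% were. Astrocyte line minus neuron line, 3 were higher and 1 lower, where 7.21% and 6.99% were. Without sorted oligodendrocyte replicate 36, a library outside that last contrast but inside its fit, the count higher was 5, Pdgfra and Cspg4 being added (1.96 and 2.64 on the log2 scale, adjusted p = 0.0115 and 0.0144, edgeR). Leaving out sorted neuron replicate 2 added Cspg4 alone (3.64, adjusted p = 0.0128, edgeR), and leaving out sorted astrocyte replicate 6 added Pdgfra alone (2.53, adjusted p = 0.0464, edgeR). DESeq2 also called 5. Of all genes 15.2% were higher in the fit without replicate 36 and 9.84% by DESeq2.

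The sorted types were also compared with each other in 1 fit of 12 libraries and 13028 genes. Sorted oligodendrocyte over sorted neuron nuclei, Gpr17 was higher and Tnr lower, 1 of 7 in each direction, where 12.4% and 10.7% of all genes were called; the median log2 fold change was 0.50 for the members and -0.16 for all genes. Sorted oligodendrocyte over sorted astrocyte nuclei, Gpr17 was higher and Vcan, Ptprz1 and Sox6 were lower, where 7.48% and 9.62% were called, with medians of -1.09 and -0.11. Sorted astrocyte over sorted neuron nuclei, Vcan, Ptprz1 and Sox6 were higher and Tnr was lower, where 11.4% and 8.02% were called, with medians of 2.21 and -0.05. These 3 comparisons share their libraries. Without sorted oligodendrocyte replicate 36, 2 members were higher in sorted oligodendrocyte than in sorted neuron nuclei, Pdgfra being added (1.501, adjusted p = 0.0440, edgeR), and 5 were higher in sorted astrocyte than in sorted neuron nuclei, Pdgfra and Cspg4 being added. In that fit 18.8% and 20.6% of all 13559 genes tested were higher in these comparisons, so the count over all genes grew as well. Males alone gave the same counts as all mice in the 3 comparisons, whereas females alone, 2 libraries a type with both libraries that stood apart, gave 0 higher and 0 lower, 0 and 1, and 1 and 0. Over all 13209 genes females alone gave 114 and 9, 50 and 17, and 38 and 8, so these member counts say nothing particular to the members.

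Gpr17 encodes a G protein-coupled receptor of late and committed precursors that is switched off as myelin forms. It stood at 74.0, 58.6, 40.6 and 29.95 CPM in sorted oligodendrocyte replicates 10, 12, 34 and 36, against 4.69, 1.56, 7.44 and 4.32 CPM in sorted astrocyte replicates 6, 8, 30 and 32 and 9.42, 6.68, 5.40 and 3.05 CPM in sorted neuron replicates 2, 4, 26 and 28. The lowest sorted oligodendrocyte library was above the highest library of the other sorts, and replicate 36, which had 0 counts of Pdgfra, Cspg4 and Sox6, held 48 counts of Gpr17. Presort nuclei held 76.5, 142, 91.9 and 173 CPM in the oligodendrocyte line, 67.6, 121, 136 and 109 CPM in the astrocyte line and 143, 157, 117 and 162 CPM in the neuron line. Gpr17 was 10.5-fold higher in sorted oligodendrocyte than in sorted neuron nuclei (log2 fold change 3.40 ± 0.58, SE, adjusted p = 0.000502, edgeR) and 14.9-fold higher than in sorted astrocyte nuclei (3.90 ± 0.63, adjusted p = 0.000335, edgeR). It fell by 4.42 ± 0.36 on the log2 scale on sorting in the neuron line (adjusted p = 3.93e-06, edgeR) and by 4.66 ± 0.43 in the astrocyte line (adjusted p = 1.68e-07, edgeR). In the oligodendrocyte line the difference was -0.75 ± 0.49 and did not pass (95% interval -1.81 to 0.32, adjusted p = 0.415, edgeR), although all 4 sorted libraries were below all 4 presort libraries. The change in the oligodendrocyte line exceeded that in the neuron line by 3.72 ± 0.59 (adjusted p = 3.71e-05, edgeR) and that in the astrocyte line by 3.92 ± 0.62 (adjusted p = 3.4e-05, edgeR).

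Gpr17 lies within chromosome 18, 31942997 to 31949636 (GRCm38, GENCODE M21, minus strand), where its exons overlap those of Lims2 on the other strand. The library kit keeps no strand, so reads in the shared stretch cannot be assigned. Lims2 had 89, 107, 31 and 0 counts in sorted oligodendrocyte replicates 10, 12, 34 and 36, where Gpr17 had 217, 123, 109 and 48. These Lims2 counts came to 30.3, 51.0, 11.5 and 0 CPM. Lims2 was at 0 to 2.16 CPM in sorted astrocyte nuclei and 0 to 1.13 CPM in sorted neuron nuclei. In replicates 10, 12 and 34 Lims2 was thus, like Gpr17, above every sorted astrocyte and neuron library. The sorted oligodendrocyte library with 0 counts of Lims2 is replicate 36, which stood apart. What share of the Gpr17 counts comes from the overlap was not tested. In presort libraries Lims2 was at 0 to 27.1 CPM. Genes on the other strand also reach exons of Pdgfra (Gm42802 and Gm42803), Vcan (Gm4117) and Tnr (Gm38039). No counts were available for those genes, and their part in the levels of Pdgfra, Vcan and Tnr was not tested.

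Pdgfra encodes the receptor for platelet-derived growth factor A that drives precursor division, and the gene spans chromosome 5, 75152292 to 75198215 (GRCm38, plus strand). Its level was 14.0, 6.20, 23.8 and 0 CPM in sorted oligodendrocyte replicates 10, 12, 34 and 36, against 8.95, 19.9, 81.9 and 17.3 CPM in sorted astrocyte nuclei and 8.67, 4.59, 4.57 and 6.48 CPM in sorted neuron nuclei. The sorted groups overlap, the 81.9 CPM of sorted astrocyte replicate 30 rests on 11 counts, and the 0 of sorted oligodendrocyte replicate 36 allows up to 1.87 CPM. Presort nuclei held 95.6, 115, 103 and 141 CPM in the oligodendrocyte line, 81.2, 104, 111 and 113 CPM in the astrocyte line and 109, 84.9, 110 and 111 CPM in the neuron line. It fell on sorting by 3.94 ± 0.34 in the neuron line (log2, adjusted p = 6.92e-06, edgeR) and by 2.11 ± 0.45 in the astrocyte line (adjusted p = 0.000967, edgeR). In the oligodendrocyte line its log2 fold change was -3.01 ± 0.86 (adjusted p = 0.0536, edgeR), with every sorted library under every presort library; the adjusted p was 0.000305 without sorted replicate 36 and 0.0413 without sorted replicate 34. Among sorted types its differences did not pass: 1.12 ± 0.82 for oligodendrocyte over neuron, -1.09 ± 0.85 for oligodendrocyte over astrocyte and 2.21 ± 0.87 for astrocyte over neuron (adjusted p = 0.363, 0.472 and 0.0932, edgeR). Without sorted oligodendrocyte replicate 36 the first and the last passed (1.501 and 2.01, adjusted p = 0.0440 and 0.00823, edgeR).

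Cspg4 encodes NG2, a membrane proteoglycan of precursors and pericytes, and spans chromosome 9, 56865033 to 56899870 (GRCm38, plus strand). Sorted nuclei held 7.16, 11.4, 8.20 and 0 CPM in the oligodendrocyte line, 14.9, 14.1, 7.44 and 21.3 CPM in the astrocyte line and 11.3, 4.18, 0.415 and 2.67 CPM in the neuron line. Presort nuclei held 6.38, 57.7, 23.0 and 63.7 CPM, 20.3, 30.3, 36.04 and 33.6 CPM, and 57.9, 52.2, 37.8 and 55.4 CPM in the same order of lines. The counts behind it were low, from 0 to 118 a library, and in the oligodendrocyte line a presort library with 2 counts lay inside the sorted range. It fell by 3.29 ± 0.61 in the neuron line (log2, adjusted p = 0.00352, edgeR), where sorted and presort libraries did not overlap. Neither the astrocyte line (-0.73 ± 0.39, 95% interval -1.56 to 0.09, adjusted p = 0.19, edgeR) nor the oligodendrocyte line (-2.07 ± 0.95, interval -4.15 to 0.01, adjusted p = 0.212, edgeR) passed. Among sorted types the log2 fold changes were 0.80 ± 0.83, -1.09 ± 0.83 and 1.89 ± 0.85 for oligodendrocyte over neuron, oligodendrocyte over astrocyte and astrocyte over neuron, and did not pass (adjusted p = 0.537, 0.463 and 0.147, edgeR). The last passed without sorted neuron replicate 2 (2.85, adjusted p = 0.0459, edgeR) and without sorted oligodendrocyte replicate 36 (1.93, adjusted p = 0.0164, edgeR).

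Among markers of the other cells that carry Pdgfra and Cspg4, some mural markers fell on sorting in each line. Fibroblast markers were called in the neuron line only. Summed CPM of 8 mural markers was 5.72 to 14.7 in sorted neuron nuclei, against 131 to 358 in presort nuclei of that line, and 5 of 5 tested members fell, among them Anpep, Myh11 and Rgs5. In the astrocyte line the mural sum was 63.2 to 76.3 CPM sorted, against 303 to 568 CPM presort, and 5 of 5 fell; in the oligodendrocyte line it was 0.624 to 143, against 179 to 1282 CPM, and 2 of 6 fell (Acta2 and Myh11). The 7 fibroblast markers summed to 5.43 to 12.6 CPM in sorted neuron nuclei, against 108 to 249 CPM presort, with 3 of 3 tested members lower (Col1a1, Col1a2 and Dcn). They summed to 65.2 to 196 CPM in sorted astrocyte nuclei, against 121 to 199 CPM presort, with 0 of 7 called, and to 2.50 to 174 CPM in sorted oligodendrocyte nuclei, against 47.8 to 300.4 CPM presort, with 0 of 5 called. Of all genes tested 1.26% rose and 5.08% fell in the neuron line. The shares were 13.7% and 15.4% in the astrocyte line, and 5.12% and 3.24% in the oligodendrocyte line. The lowest sorted oligodendrocyte sums, mural and fibroblast, were those of replicate 36. Of these markers 1 fibroblast gene was at 0 in all sorted neuron libraries, and no other mural or fibroblast marker was at 0 in a whole group. Their part in the levels of Pdgfra and Cspg4 was not tested.

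Vcan encodes versican, a large secreted proteoglycan of the brain matrix, and spans chromosome 13, 89655312 to 89742509 (GRCm38, minus strand). It stood at 33.8, 28.1, 61.8 and 0.624 CPM in sorted oligodendrocyte nuclei, against 347, 557, 640 and 402 CPM in sorted astrocyte nuclei and 30.1, 91.0, 114 and 95.3 CPM in sorted neuron nuclei. Every sorted astrocyte library was above every other sorted library, and the value of sorted oligodendrocyte replicate 36 rests on 1 count. Presort nuclei held 370, 269, 260 and 232 CPM in the oligodendrocyte line, 284, 373, 302 and 260 CPM in the astrocyte line and 245, 215, 351 and 311 CPM in the neuron line. Vcan was 6.59-fold higher in sorted astrocyte than in sorted neuron nuclei (log2 fold change 2.72 ± 0.68, adjusted p = 0.00835, edgeR), and lower in sorted oligodendrocyte than in sorted astrocyte nuclei (-3.84 ± 0.71, adjusted p = 0.000982, edgeR). On sorting it rose by 0.87 ± 0.25 in the astrocyte line (log2, adjusted p = 0.0113, edgeR), where 1 sorted library was inside the presort range. It fell by 1.66 ± 0.35 in the neuron line (adjusted p = 0.00876, edgeR) and by 2.85 ± 0.77 in the oligodendrocyte line (adjusted p = 0.0433, edgeR). The last call was lost when any of 6 of the 8 libraries was left out (presort replicates 9, 11, 33 and 35 and sorted replicates 10 and 12; adjusted p = 0.0793 to 0.134, edgeR, log2 -2.89 to -2.61). The astrocyte line differed from the neuron line by 2.52 ± 0.68 (adjusted p = 0.00955, edgeR) and the oligodendrocyte line from the astrocyte line by -3.65 ± 0.69 (adjusted p = 0.000328, edgeR).

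Ptprz1 encodes a receptor phosphatase whose ectodomain, shed as phosphacan, is a chondroitin sulphate proteoglycan that binds pleiotrophin, contactin 1 and tenascins. The gene spans chromosome 6, 22875502 to 23052916 (GRCm38, plus strand). It had 49.8, 30.5, 105 and 85.5 CPM in sorted oligodendrocyte nuclei, against 2010, 2837, 2568 and 2597 CPM in sorted astrocyte nuclei and 53.9, 51.4, 67.2 and 91.5 CPM in sorted neuron nuclei. The oligodendrocyte and neuron sorts overlap, and the astrocyte sort lies far above them. Presort nuclei held 268, 350, 555 and 560 CPM, 453, 286, 285 and 491 CPM, and 351, 212, 465 and 414 CPM in the oligodendrocyte, astrocyte and neuron lines. Ptprz1 was 42.5-fold higher in sorted astrocyte than in sorted neuron nuclei (5.41 ± 0.47 on the log2 scale, adjusted p = 2.44e-06, edgeR) and lower in sorted oligodendrocyte than in sorted astrocyte nuclei (-4.91 ± 0.46, adjusted p = 2.06e-06, edgeR). On sorting it rose 7.76-fold in the astrocyte line (2.96 ± 0.27, adjusted p = 1.57e-07, edgeR), fell by 2.33 ± 0.31 in the neuron line (adjusted p = 0.000248, edgeR) and fell by 2.02 ± 0.56 in the oligodendrocyte line (adjusted p = 0.0487, edgeR). The last call was lost without any of 7 of the 8 libraries (adjusted p = 0.0559 to 0.169, edgeR, log2 -2.13 to -1.76), sorted replicate 36 being the exception. Between lines the change differed by 5.27 ± 0.56 for astrocyte minus neuron (adjusted p = 1.54e-07, edgeR) and by -4.95 ± 0.55 for oligodendrocyte minus astrocyte (adjusted p = 1.65e-07, edgeR), whereas oligodendrocyte minus neuron, at 0.32 ± 0.53 (interval -0.76 to 1.396), did not pass.

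Sox6 encodes a transcription factor of the SoxD group that keeps precursors undifferentiated, and spans chromosome 7, 115470872 to 116038796 (GRCm38, minus strand). Its level was 13.6, 16.2, 23.1 and 0 CPM in sorted oligodendrocyte nuclei, against 338, 255, 283 and 156 CPM in sorted astrocyte nuclei and 8.67, 25.1, 20.8 and 13.7 CPM in sorted neuron nuclei. The astrocyte sort was again separate from the other sorts, which overlap. Presort nuclei held 66.9, 61.6, 107 and 100 CPM in the oligodendrocyte line, 67.6, 30.3, 49.8 and 54.5 CPM in the astrocyte line and 61.3, 45.7, 56.7 and 111 CPM in the neuron line. Sox6 was 17.1-fold higher in sorted astrocyte than in sorted neuron nuclei (log2 4.09 ± 0.73, adjusted p = 0.000724, edgeR) and lower in sorted oligodendrocyte than in sorted astrocyte nuclei (-4.15 ± 0.73, adjusted p = 0.000655, edgeR). It rose 6.00-fold on sorting in the astrocyte line (2.59 ± 0.33, adjusted p = 4.6e-06, edgeR) and fell by 1.90 ± 0.40 in the neuron line (adjusted p = 0.00845, edgeR; 0.0542 without presort neuron replicate 27). In the oligodendrocyte line it was -2.31 ± 0.85 and did not pass (adjusted p = 0.119, edgeR), and without sorted replicate 36 it was -1.91 and passed (adjusted p = 0.00115, edgeR). The astrocyte line differed from the neuron line by 4.47 ± 0.76 (adjusted p = 0.000107, edgeR) and the oligodendrocyte line from the astrocyte line by -4.80 ± 0.77 (adjusted p = 3.69e-05, edgeR).

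Tnr encodes tenascin-R, a matrix glycoprotein made by oligodendrocyte-lineage cells and some neurons, and spans chromosome 1, 159523769 to 159931729 (GRCm38, plus strand). It stood at 17.0, 6.67, 15.3 and 1.87 CPM in sorted oligodendrocyte nuclei, against 13.2, 12.5, 22.3 and 4.32 CPM in sorted astrocyte nuclei and 58.8, 89.8, 58.1 and 62.5 CPM in sorted neuron nuclei. Every sorted neuron library was above every other sorted library. Presort nuclei held 86.1, 96.2, 68.9 and 59.2 CPM, 60.9, 60.7, 81.2 and 50.3 CPM, and 78.4, 78.4, 56.7 and 76.7 CPM in the oligodendrocyte, astrocyte and neuron lines, and the sorted neuron range overlaps that of presort nuclei of its line. In the neuron line the log2 fold change on sorting was 0.00 ± 0.27 (95% interval -0.58 to 0.58, adjusted p = 0.998, edgeR). It fell by 2.39 ± 0.42 in the astrocyte line (adjusted p = 0.000159, edgeR) and by 2.51 ± 0.64 in the oligodendrocyte line (adjusted p = 0.0333, edgeR), a call lost without presort replicate 9, 11, 33 or 35 or sorted replicate 12 (adjusted p = 0.0678 to 0.127, edgeR). Tnr was lower in sorted oligodendrocyte than in sorted neuron nuclei (-2.39 ± 0.59, adjusted p = 0.0077, edgeR) and lower in sorted astrocyte than in sorted neuron nuclei (-2.38 ± 0.62, adjusted p = 0.0112, edgeR). Its change differed from that of the neuron line by -2.45 ± 0.61 in the oligodendrocyte line (adjusted p = 0.00549, edgeR) and by -2.31 ± 0.63 in the astrocyte line (adjusted p = 0.0108, edgeR).

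Nuclei and cytoplasm were compared between the 12 presort libraries and the 2 of cytoplasm. Of the members 6 were higher in presort nuclei and 0 lower, where 20.1% of 7727 genes were higher and 30.2% lower, and the median log2 fold change was 2.41 for the members and -0.12 for all genes tested. Pdgfra held 81.2 to 141 CPM in presort nuclei, against 4.03 and 9.78 CPM in cytoplasm (3.38 ± 0.40 on the log2 scale, adjusted p = 6.92e-07, edgeR). Vcan held 215 to 373 CPM, against 17.3 and 27.8 CPM in cytoplasm (3.10 ± 0.34, adjusted p = 3.64e-07, edgeR). Every presort library was above both cytoplasmic libraries for these genes. Cspg4 was 3.20 ± 0.71 higher (0.672 and 5.15 CPM in cytoplasm, the first resting on 3 counts; adjusted p = 0.000789, edgeR) and Gpr17 2.41 ± 0.52 (3.81 and 29.1 CPM; adjusted p = 0.000646, edgeR). Ptprz1 was 2.32 ± 0.41 higher (63.9 and 37.1 CPM; adjusted p = 9.2e-05, edgeR) and Tnr 1.67 ± 0.42 (5.60 and 25.5 CPM; adjusted p = 0.00266, edgeR). Sox6 was the exception, with 30.3 to 111 CPM in presort nuclei, against 86.7 and 48.4 CPM in cytoplasm (-0.64 ± 0.37, 95% interval -1.42 to 0.14, adjusted p = 0.161, edgeR). The Sox6 value was -1.07 without cytoplasm replicate 2 (adjusted p = 0.0333, edgeR) and 0.05 without cytoplasm replicate 1. Mural markers (6 of 6 tested) and fibroblast markers (4 of 4) were also higher in presort nuclei, and their part in these differences was not tested.

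Other precursor genes, a list of 16, did not move together. They summed to 76.1 to 574 CPM in sorted oligodendrocyte nuclei, 483 to 668 CPM in sorted astrocyte nuclei and 846 to 1134 CPM in sorted neuron nuclei, against 801 to 1176, 854 to 1117 and 895 to 1274 CPM in presort nuclei of the same lines. The lowest value, again, was sorted oligodendrocyte replicate 36. Of 13 tested, sorted oligodendrocyte over neuron nuclei had 1 higher, the matrilin gene Matn4 (log2 3.14), and 3 lower, Megf11 (-2.98), Mmp16 (-1.85) and Cspg5 (-1.77). Sorted oligodendrocyte over astrocyte nuclei had 1 higher, the protocadherin gene Pcdh15 (4.96), and 4 lower, led by Luzp2 (-4.36), Cspg5 (-4.34) and Xylt1 (-4.34). Sorted astrocyte over neuron nuclei had 4 higher, led by Luzp2 (4.71), Rlbp1 (4.60) and Xylt1 (3.06), and 5 lower, led by Pcdh15 (-3.79), Sema5a (-2.91) and Megf11 (-2.81). Of all 13028 genes 12.4% were higher and 10.7% lower for oligodendrocyte over neuron. The shares were 7.48% and 9.62% for oligodendrocyte over astrocyte, and 11.4% and 8.02% for astrocyte over neuron. On sorting, 0 of 10 rose and 2 fell in the neuron line, 3 of 11 rose and 6 fell in the astrocyte line, and 0 of 8 rose and 1 fell in the oligodendrocyte line. Of all genes tested 1.26% rose and 5.08% fell in the neuron line, 13.7% and 15.4% in the astrocyte line, and 5.12% and 3.24% in the oligodendrocyte line. Medians were -0.78, -2.21 and -1.74, beside 0.07, -0.03 and -0.07 over all genes tested.

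Committed and newly formed oligodendrocyte genes, a list of 14, were the group nearest to Gpr17 in stage. Of 12 tested, 9 were higher and 1 lower in sorted oligodendrocyte than in sorted neuron nuclei (median 3.22), among them the lineage factors Olig1 (6.03) and Nkx2-2 (5.92) and Enpp6 (5.85), with Tmem163 lower (-1.90). Against sorted astrocyte nuclei 5 were higher, led by Enpp6 (5.19), Bcas1 (4.86) and Olig1 (3.14), and 1 lower, the calcium channel gene Itpr2 (-3.30), with a median of 0.97. Sorted astrocyte over neuron nuclei had 5 higher, led by Nkx2-2 (5.26), Itpr2 (5.05) and Olig2 (4.49), and 1 lower, Tmem163 (-4.57), with a median of 1.77. On sorting in the oligodendrocyte line 4 of 12 rose (Bcas1, Enpp6, Sirt2 and Olig1) and 0 fell. The rest were not called there and went both ways. Nkx2-2 (2.03), Olig2 (1.52) and Tcf7l2 (1.13) were above 0. Itpr2 (-0.895), Cnksr3 (-0.85), Tmem163 (-0.68), Bmp4 (-0.65) and Fyn (-0.26) were below 0. In the astrocyte line 2 of 11 rose and 2 fell, and in the neuron line 0 of 12 rose and 6 fell. The shares over all genes, among sorted types and on sorting, are those given for the previous list, and 2 of 11 each way is near them in the astrocyte line. Medians over all genes were -0.16, -0.11 and -0.05 in the comparisons of sorted types, in the order given. Mature oligodendrocyte genes rose on sorting in the oligodendrocyte line for 12 of 12 and fell for 11 of 12 in the astrocyte line and 12 of 12 in the neuron line.

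**Figure D3:**
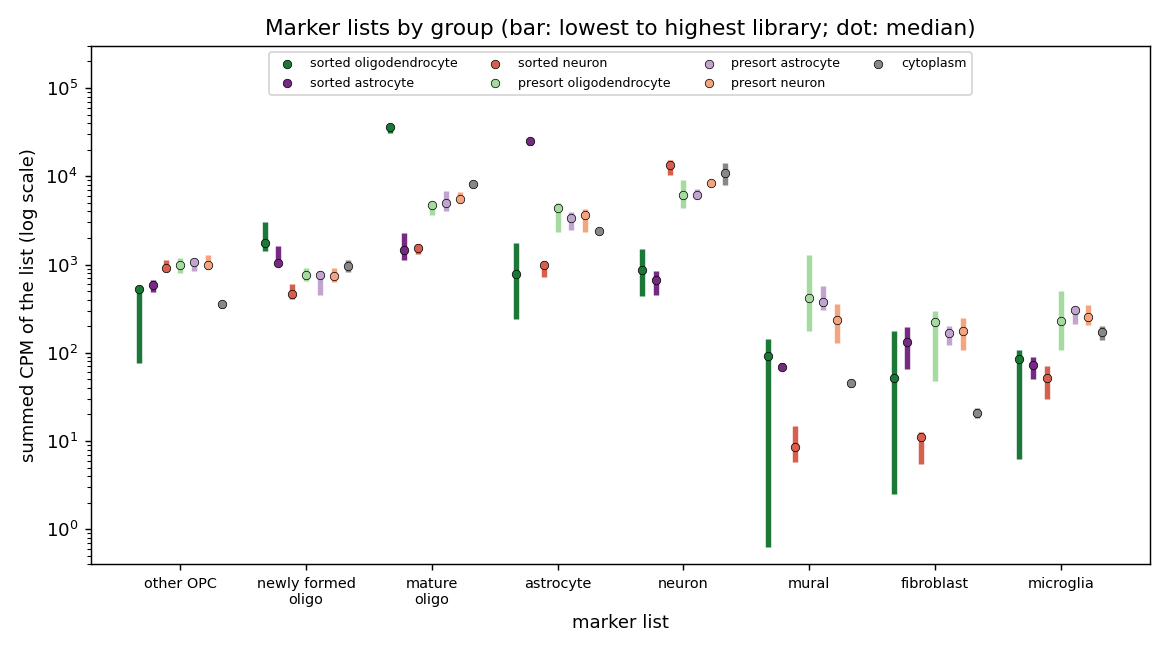
Summed CPM of each marker list (vertical axis, log scale) in the 7 groups, with a bar from the lowest to the highest library and a dot at the median. Other precursor genes lie between 483 and 1274 CPM in all nuclear groups except sorted oligodendrocyte nuclei, whose lowest library is at 76.1 CPM, whereas mural and fibroblast sums are lowest in sorted neuron nuclei and in sorted oligodendrocyte replicate 36 (0.624 and 2.50 CPM).

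Partners of the receptors and matrix proteins were read from lists of their pathways. Among 5 genes of growth factor signalling through Pdgfra and its relative, sorted oligodendrocyte over neuron nuclei had the receptor Pdgfrb (3.36) and the ligand Pdgfa (1.54) higher. Sorted oligodendrocyte over astrocyte nuclei had the ligand Pdgfd (-3.96) and Pdgfrb (-3.87) lower, and sorted astrocyte over neuron nuclei had Pdgfrb (7.23) and Pdgfd (5.61) higher. Shares over all genes in these comparisons are those given for the other precursor genes. On sorting, Pdgfrb rose in the astrocyte line (1.95 ± 0.34, adjusted p = 0.000129, edgeR), where Pdgfra fell, and fell in the neuron line (-4.74 ± 0.62, adjusted p = 0.000236, edgeR). Pdgfrb is also known as a pericyte gene. Mural markers fell in both lines, and their part in its level was not tested.

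Matrix genes that bind or resemble versican and tenascin-R, 8 tested of 11, split by type. Sorted oligodendrocyte over neuron nuclei had the link protein genes Hapln2 (7.89) and Hapln1 (4.38) higher and the hyaluronan synthase gene Has1 (-2.79) lower. Sorted oligodendrocyte over astrocyte nuclei had Hapln2 (6.87) higher and tenascin-C (Tnc, -6.05), brevican (Bcan, -5.78) and neurocan (Ncan, -4.35) lower. Sorted astrocyte over neuron nuclei had 4 higher, led by Tnc (6.71), Bcan (6.51) and Hapln1 (4.4996), and Hapln4 (-2.66) lower. Among all 13028 genes 11.4% were higher and 8.02% lower in that comparison. The shares were 12.4% and 10.7% for oligodendrocyte over neuron, and 7.48% and 9.62% for oligodendrocyte over astrocyte. In the astrocyte line, where Vcan rose, 4 of 7 rose on sorting (Tnc, Bcan, Hapln1 and Ncan) and 2 fell (Hapln2 and Hapln4). Of all genes tested in that line 13.7% rose and 15.4% fell. Among 7 tested ligands and contact partners of Ptprz1, the heparin-binding ligands pleiotrophin (Ptn, 3.0005) and midkine (Mdk, 4.89) were higher in sorted astrocyte than in sorted neuron nuclei, and L1cam (-3.95) and Cntn1 (-1.34) were lower. Sorted oligodendrocyte over neuron nuclei had Nfasc (3.32), Ptn (1.71) and Ncam1 (1.49) higher and Nrcam (-3.20), L1cam (-2.51) and Cntn1 (-2.40) lower, and over astrocyte nuclei Nfasc (2.37) higher and Mdk (-5.11), Nrcam (-3.44) and Cntn1 (-1.06) lower.

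Among 5 tested relatives of Sox6, Sox5 and Sox9 were called in the direction of Sox6 in the astrocyte comparisons of sorted types. Sox13 and Sox8 were, like Sox6, higher in sorted astrocyte than in sorted neuron nuclei, and Sox10 was not. Sox10, a driver of the oligodendrocyte lineage, was higher in sorted oligodendrocyte than in sorted neuron nuclei (6.81) together with Sox13 (4.90) and Sox8 (3.41), with Sox5, the closest relative of Sox6, lower (-1.65). Over sorted astrocyte nuclei Sox10 was higher (7.29), and Sox9 (-3.58) and Sox5 (-3.39) were lower. Sorted astrocyte over neuron nuclei had 4 higher, led by Sox13 (6.21), Sox9 (4.47) and Sox8 (2.33), with Sox5 at 1.75. Sox10, at -0.48, did not pass. Among all 13028 genes 11.4% were higher and 8.02% lower in that comparison. The shares were 12.4% and 10.7% for oligodendrocyte over neuron, and 7.48% and 9.62% for oligodendrocyte over astrocyte. On sorting in the astrocyte line Sox9 (3.58 ± 0.40, SE) and Sox5 (1.71 ± 0.35) rose beside Sox6. Of the Lhfpl family, to which Lhfpl3 belongs, 3 of 5 were tested. Among sorted types Lhfp alone was called, lower in sorted oligodendrocyte than in sorted neuron (-4.59) and sorted astrocyte nuclei (-4.34). On sorting, Lhfp fell in the oligodendrocyte line (-3.98), and in the astrocyte line Lhfpl2 rose (1.22) and Lhfpl4 fell (-2.84). Lhfpl2 was also higher in presort nuclei than in cytoplasm (2.38).

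The genes most like each member were ranked by Pearson's r of group mean log2 CPM over the 7 groups, among 11389 genes. The points share their libraries, and such an r is a description of 7 points. Ptprz1 was most like Scara3, Gpr146 and Lgals3bp (r = 0.998, 0.997 and 0.995), and Sox6 most like Apobec1, Sfxn5 and Rgs12 (0.997, 0.997 and 0.991). Tnr was most like the spectrin gene Sptb and the ryanodine receptor genes Ryr3 and Ryr2 (0.995, 0.989 and 0.987). Pdgfra was most like Ntn1, Myh11 and Filip1l (0.988, 0.985 and 0.983), and Cspg4 like Furin, Ntn1 and Serping1 (0.984, 0.982 and 0.973). Gpr17 was most like Col15a1, Fxyd5 and Thsd4 (0.989, 0.964 and 0.963), and Vcan like Nrp1, Ocel1 and Fgfr1 (0.986, 0.986 and 0.985).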

How the data were processed

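Per the labels' protocols, RNA was taken up in Trizol, DNase-treated and cleaned on Qiagen columns, and libraries were made from it with NuGEN Ovation RNA-seq V2. The authors deposited whole-number counts per gene for 26 libraries, not normalized. Trimmomatic, Bowtie2, STAR, bedtools and edgeR are named, without versions or order, per the submitters' processing notes. For the build, the annotation, the counted regions and the sorting method: not given in the sources used here. The kit keeps no strand and no molecular identifiers are described, so floors cover counting error only. The intervals of fold changes come from the edgeR fits and include the spread between libraries. Of 27501 identifiers 26495 had a symbol in GENCODE M21 (GRCm38), the source of gene positions; the entry named GFP was left out of the tests.

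Groups, sexes and replicate numbers came from the labels. CPM is the count over the library's total. Counts were tested with edgeR 4.0.16 (R 4.3.3): TMM, filterByExpr (minimum count 10), quasi-likelihood F test, two-sided, Benjamini-Hochberg over all genes tested, threshold 0.05. The code was run on simulated counts with a fixed spread and independent libraries. That run did not cover changes at low counts, libraries that stand apart or shared mice, so it does not bear on such cases. The SE follows from the fold change and the F statistic. The closest replicates of a group differed more than sampling noise (chi-square per degree of freedom at least 1.97), so no library was a copy of another in its group. Libraries of different groups were not compared in this way. The members and lists were chosen with earlier results of these data known. Named genes are all members, up to 3 called genes with the largest fold change per list and direction among sorted types, and the 3 genes most like each member. In the paragraphs on sorting, called genes of a list were named after their values were seen. Alternatives were RLE size factors, no filter, DESeq2 1.42.0, each library left out, each sex, sex as a covariate and 1 fit of 24 nuclear libraries; leaving out both libraries that stand apart was added after seeing the data.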

Additional observations from a re-analysis of the deposited data

Results flagged for a closer look

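A gap test within groups of 4 libraries (Dixon, 95%) was passed in 4 of 42 groups, where chance gives about 1 in 20. Pdgfra stood at 81.9 CPM in sorted astrocyte replicate 30, above 8.95 to 19.9 CPM in the other 3, and this rests on 11 counts in the shallowest library. Pdgfra stood at 84.9 CPM in presort neuron replicate 3, below 109 to 111 CPM in the other 3. Tnr stood at 56.7 CPM in presort neuron replicate 25, below 76.7 to 78.4 CPM, and at 89.8 CPM in sorted neuron replicate 4, above 58.1 to 62.5 CPM. Over the 12 presort libraries neither gene varied more than counting error gives (chi-square per degree of freedom 0.512 for Pdgfra and 0.766 for Tnr).

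In 10 tests the sorted-over-presort change differed between lines (log2, edgeR, 24 nuclear libraries). For oligodendrocyte line minus neuron line it was 3.72 for Gpr17 and -2.45 for Tnr. For oligodendrocyte line minus astrocyte line it was 3.92 for Gpr17, -3.65 for Vcan, -4.95 for Ptprz1 and -4.80 for Sox6. For astrocyte line minus neuron line it was 2.52 for Vcan, 5.27 for Ptprz1, 4.47 for Sox6 and -2.31 for Tnr (-2.305 before rounding).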

How the results depend on the processing

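No paired analysis was possible because the sorted and presort libraries compared share no replicate number and the labels do not tie them to a mouse. Adjacent numbers of 1 line and sex (1 and 2, 3 and 4) may mark a mouse, and no such pairing was assumed. Of 70 member results 41 were called, 18 of them in every alternative run and 23 lost in at least 1; 0 of the called results reversed. Counts of members that moved over 1.5 times were as follows. Females only gave 0 higher and 0 lower for oligodendrocyte over neuron, 0 and 1 for oligodendrocyte over astrocyte, and 1 and 0 for astrocyte over neuron, 0 lower in the oligodendrocyte line, and 0 and 0, 0 and 1, and 1 and 0 for the differences between lines. Over all genes females gave 182 higher and 37 lower, 142 and 89, and 108 and 37 for those differences. With all mice these were 1078 and 871, 856 and 777, and 878 and 851. Males only gave 3 lower in the neuron line, 5 lower in the oligodendrocyte line and 0 lower for astrocyte minus neuron line. All genes lower in the neuron line were 127 in males, against 560 with all mice. Those for the oligodendrocyte line are given above. DESeq2 gave 5 lower in the oligodendrocyte line and 5 higher for astrocyte minus neuron line, and the fit over 24 libraries gave 6 lower in the oligodendrocyte line. Without both libraries that stood apart, 2 were higher for oligodendrocyte over neuron, 5 for astrocyte over neuron and 5 for astrocyte minus neuron line. Leaving out 1 library gave 1 to 2, 3 to 5 and 3 to 5 for these, 0 to 5 lower in the oligodendrocyte line and 0 to 1 lower for nuclei over cytoplasm. Without both libraries that stood apart, all genes higher were 2549 for oligodendrocyte over neuron, against 1610, and 1571 for astrocyte minus neuron line, against 878. The member counts thus moved the same way as the counts over all genes given here.

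The 10 results that reversed were uncalled with all libraries, at -0.64 to 0.50, and the cause was not tested. For oligodendrocyte over neuron, Ptprz1 was -0.10 in males and Sox6 0.16 in males, 0.34 without both libraries and -0.40 to 0.34 leaving out 1. Tnr for oligodendrocyte over astrocyte was 0.01 without a filter (0.0068) and by DESeq2 (0.0073), 0.018 in males, 0.057 with sex as a covariate, 0.18 over 24 libraries, 0.46 without both and -0.35 to 0.37 leaving out 1. Gpr17 for astrocyte over neuron was 0.50 in females. Tnr in the neuron line was -0.01 with RLE (-0.0102) and DESeq2 (-0.0107), -0.022 in females and -0.22 to 0.13 leaving out 1. For oligodendrocyte minus neuron line, Ptprz1 was -0.19 in males, -0.11 without both and -0.15 to 0.58 leaving out 1, and Sox6 was 0.0298 without both. For oligodendrocyte minus astrocyte line, Tnr was 0.23 in females, 0.19 without both and -0.62 to 0.077 leaving out 1. Gpr17 for astrocyte minus neuron line was 0.60 in females and -0.32 to 0.27 leaving out 1, and Sox6 for nuclei over cytoplasm -1.07 to 0.049 leaving out 1.

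RLE size factors moved the median of all genes by -0.12 in the oligodendrocyte line, -0.17 for oligodendrocyte minus astrocyte line and 0.13 for astrocyte minus neuron line. DESeq2 called 582 genes higher and 938 lower in the oligodendrocyte line, against 487 and 308 by edgeR, and 1731 and 2287 for oligodendrocyte over neuron, against 1610 and 1394. Over all alternatives the counts of all genes higher ranged from 0 to 1528 in the oligodendrocyte line, 0 to 408 in the neuron line and 728 to 1846 in the astrocyte line, and those lower from 0 to 1543, 127 to 789 and 802 to 2560. Cspg4 had as few as 2 counts in a presort library.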
